A study of Mus musculus with 30 samples.

Results

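Cohesin regions that were called in a single peak list were examined in NIH3T3 cells, an immortalized mouse embryonic fibroblast line. Chromatin immunoprecipitation with sequencing (ChIP-seq) had been done with 3 antibodies, against SMC1, RAD21 and SMC3, in 2 lines. The control line, EV, stably carried an empty control plasmid that expresses beta-galactosidase. The other line, BORIS, was clone 2 of cells that stably express BORIS from the same kind of CpG-free plasmid, so it stands for 1 clone. Each combination of antibody and line was a single library with a single deposited list, and none of the differences between lists has a replicate check. The 6 lists were merged on chromosomes 1 to 19, joining regions that overlap or touch, which gave 146915 regions. Of these, 36992 (25.2%) were called in exactly 1 list and are called single-list regions here. A further 50858 (34.6%) were called in all 6 lists and are called all-list regions. The single-list regions were chosen by the calls themselves, so their counts, ranks and distances are descriptions of those calls and were not tested.

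Cohesin is a ring-shaped complex that holds sister chromatids together and extrudes chromatin loops. SMC1 and SMC3 are its long coiled-coil subunits, whose ATPase heads open and close the ring, and RAD21 is the kleisin that bridges those heads. Loop extrusion tends to stop at sites bound by CTCF, a zinc-finger protein, and cohesin accumulates there. BORIS (CTCFL) is a germline relative of CTCF with a similar zinc-finger domain and different ends. Since all 3 antibodies target parts of a single complex, a site occupied by the whole ring could in principle be called in every list.

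The lists contributed very unequal numbers. The EV SMC1 list held 10547 single-list regions and the BORIS SMC3 list held 9051, together 53.0% of all of them. The EV SMC3 list held 6231 and the BORIS SMC1 list 6181, nearly the same number. RAD21, the kleisin, contributed least, with 3001 regions in EV and 1981 in BORIS cells, together 13.5%. As a share of the merged regions of each list, single-list regions made up 10.7% of EV SMC1 (exact 95% binomial interval 10.5 to 10.9), 9.11% of BORIS SMC3 (8.93 to 9.29) and 6.74% of EV SMC3 (6.58 to 6.91). The shares were 6.6% in BORIS SMC1 (6.44 to 6.76), 3.9% in EV RAD21 (3.77 to 4.04) and 2.64% in BORIS RAD21 (2.52 to 2.76). These intervals, like all others here, cover counting error only. They did not overlap between lists except for EV SMC3 and BORIS SMC1.

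**Figure D1:**
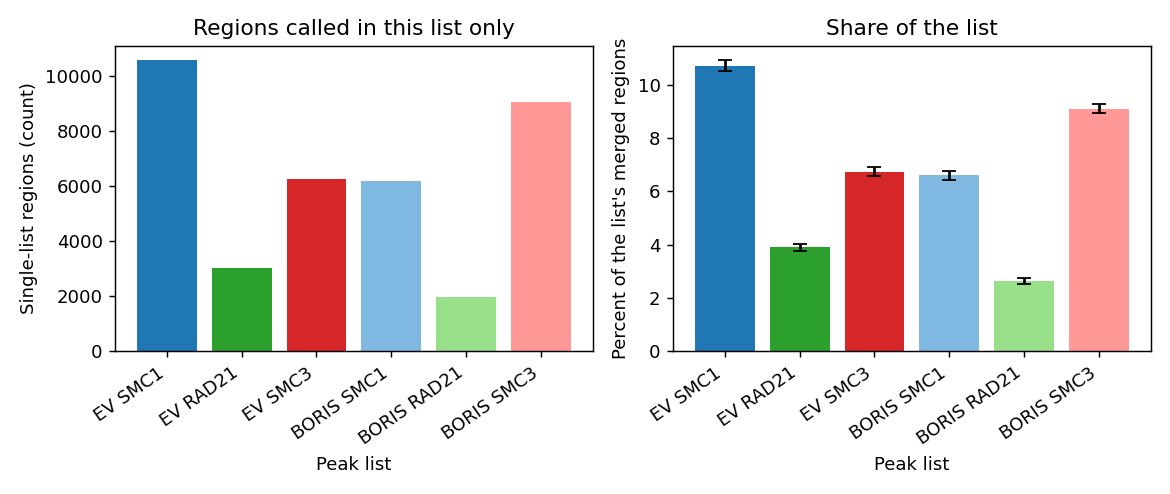
Single-list regions in each of the 6 cohesin lists, as a count (left, y axis in regions) and as a percent of the merged regions of that list (right, bars with exact 95% binomial intervals). EV SMC1 with 10547 regions and BORIS SMC3 with 9051 stand above the others, and the RAD21 lists are lowest on both scales.

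The lists also differed in length. On chromosomes 1 to 19 the 2 lists with most single-list regions were the longest, with 105041 deposited regions for BORIS SMC3 and 104020 for EV SMC1. BORIS SMC1 had 100107 and EV SMC3 98604, while EV RAD21 had 82401 and BORIS RAD21 80268. When every list was cut to its strongest 80268 regions by −log10 p, the counts drew closer together. EV SMC1 then held 5702 single-list regions, BORIS SMC3 5012, EV RAD21 4631, BORIS SMC1 4299, EV SMC3 4161 and BORIS RAD21 3703. EV RAD21 thus had fewer single-list regions than each of the 4 SMC1 and SMC3 lists as deposited, but more than BORIS SMC1 and EV SMC3 at equal length.

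The direction between lines depended on the antibody. Single-list SMC1 regions were fewer in BORIS than in EV cells, with a ratio of 0.586 (0.568 to 0.605). Single-list RAD21 regions were also fewer, with a ratio of 0.660 (0.623 to 0.699). Single-list SMC3 regions were more frequent in BORIS cells, with a ratio of 1.45 (1.41 to 1.5). The lengths of the lists moved in the same directions but by far less in relative terms. Their BORIS to EV ratios were 0.962 (SMC1), 0.974 (RAD21) and 1.07 (SMC3). Single-list regions made up only 2.64% to 10.7% of the merged regions of their list. A ratio of lengths and a ratio of single-list counts are therefore not on the same scale. Cutting every list to its strongest 80268 regions gave milder ratios of single-list counts, 0.754 (SMC1), 0.80 (RAD21) and 1.20 (SMC3). Summed over antibodies, 17213 single-list regions (46.5%) came from BORIS and 19779 (53.5%) from EV cells.

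A region counts as single-list only while the other 5 lists lack it, so each count also depends on its companions. Without the BORIS SMC3 list, the count of BORIS SMC1 rose from 6181 to 11375 regions, and the BORIS to EV ratio for SMC1 was 0.951. Without the BORIS SMC1 list, the count of BORIS SMC3 rose to 14249 and the ratio for SMC3 was 2.05. Without the EV SMC1 list, EV SMC3 held 9866 regions and the ratio for SMC3 was 1.06. RAD21 also depended on BORIS SMC3. Without that list the count of BORIS RAD21 rose from 1981 to 3363, against 3492 for EV RAD21. The ratio for RAD21 was then 0.963, with a counting interval of 0.918 to 1.01 that includes 1. Among the 19659 regions of exactly 2 lists, the most frequent pair was BORIS SMC1 with BORIS SMC3, at 4906 regions, followed by EV SMC1 with EV SMC3 at 3170. Pairs from the same line made up 60.5% of the 2-list regions, pairs of the same antibody 24.7% and the other pairs 14.7%. There are 6 possible pairs of the first kind, 3 of the second and 6 of the third.

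Single-list regions were narrow and weak. Widths were compared as each list called them, since merging widens regions of several lists. Median widths by list were 131 to 144 bp for single-list regions, 140 to 169 bp for regions of 2 lists and 282 to 328 bp for all-list regions. Between 18.5% (EV SMC1) and 34.1% (BORIS RAD21) of them had the smallest width that occurs in their list, which was 116 to 123 bp. The pileup at the summit, the number of fragments stacked over the strongest position, was recovered from the deposited fold and −log10 p as a whole number. Its median in single-list regions was 10 fragments in BORIS RAD21, 11 in EV SMC1, EV RAD21 and EV SMC3, and 12 in BORIS SMC1 and BORIS SMC3. All-list regions had medians of 26 (BORIS RAD21) to 36 (EV SMC3) fragments in the same lists. In 14041 single-list regions (38%) the summit rested on 10 or fewer fragments.

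The deposited fold compares the pileup with a local background rate, with 1 added to both. Its median in single-list regions was 4.32 (EV SMC1) to 4.72 (EV RAD21). In all-list regions it was 9.04 (BORIS SMC1) to 12.3 (EV SMC3). The median background rate implied for single-list regions was 1.33 fragments in BORIS RAD21 and 1.36 in EV RAD21, and between 1.65 (BORIS SMC3) and 1.76 (EV SMC3) in the SMC1 and SMC3 lists. In all-list regions it was 1.86 (BORIS RAD21) to 2.20 (EV SMC3).

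Ranked by −log10 p within their own list, single-list regions had median percentiles of 13.3 in BORIS RAD21, 13.8 in EV SMC3, 14.2 in BORIS SMC1, 14.4 in EV SMC1, 15.8 in EV RAD21 and 18 in BORIS SMC3. The 2-list regions, just outside the class, had medians of 19.3 to 27.9, and all-list regions had medians of 64.4 to 72.9. Single-list regions were nonetheless mostly clear of the calling threshold, which was a −log10 q of 1.30 to 1.32. Only 1.83% (EV RAD21) to 3.05% (EV SMC1) of them had a −log10 q under 2, and the medians lay between 4.23 and 4.83. In all, 812 (2.20%) ranked in the top 50% of their list. None of the 36992 ranked in the strongest 10%. A count of 0 allows a share of up to 0.00811%. The highest percentile reached was 73.0.

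**Figure D2:**
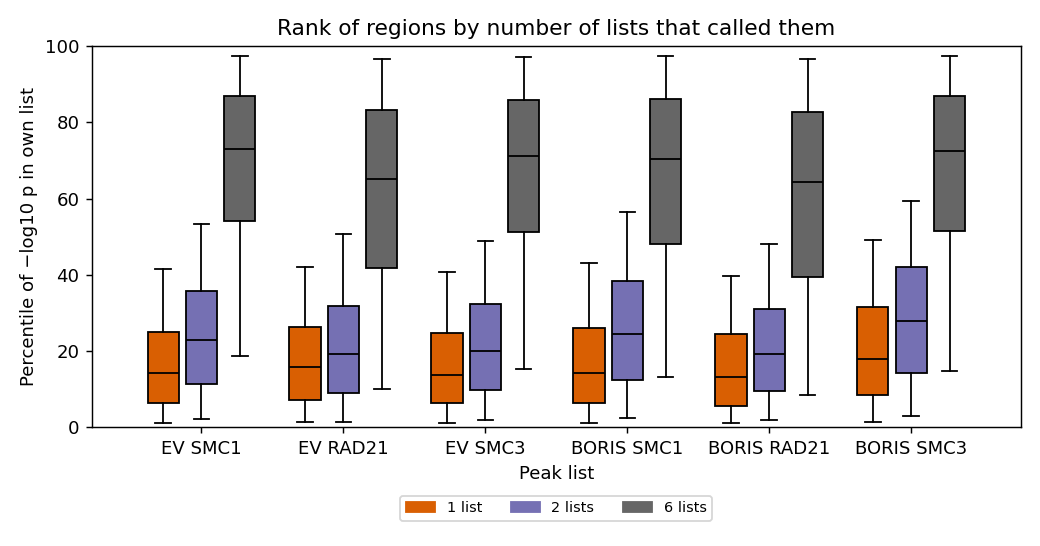
Percentile of −log10 p within the own list (y axis, percent) for regions called in 1, 2 or 6 lists, shown for each of the 6 lists. Boxes span the quartiles with the median as a line, and whiskers reach the 5th and 95th percentiles. Regions of 1 list sit lowest in every list, with medians of 13.3 to 18, below the 19.3 to 27.9 of 2-list regions.

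The strongest single-list regions were not shared evenly. A −log10 q of 10 or more was reached by 1222 single-list regions. BORIS SMC3 held 508 of them (41.6%), EV SMC1 held 270, EV SMC3 147, EV RAD21 141, BORIS SMC1 121 and BORIS RAD21 35. As a share of the single-list regions of each list, these were 5.61% in BORIS SMC3 and 4.70% in EV RAD21, against 2.56% in EV SMC1, 2.36% in EV SMC3, 1.96% in BORIS SMC1 and 1.77% in BORIS RAD21. Of all deposited regions on chromosomes 1 to 19, the same −log10 q was reached by 57.3% in EV RAD21, 54.1% in EV SMC3, 53.8% in EV SMC1, 52.8% in BORIS RAD21, 52.1% in BORIS SMC3 and 50.4% in BORIS SMC1. By count BORIS SMC3 and not EV SMC1 led among these regions, for which the other lists were kept as deposited. When every list was limited to that strength, EV SMC1 led with 5196 single-list regions against 4636 for BORIS SMC3. Among the 1222 regions, with the other lists as deposited, the BORIS to EV ratios were farther from 1 than among all single-list regions. SMC1 had 0.448 (0.359 to 0.557), RAD21 0.248 (0.166 to 0.362) and SMC3 3.46 (2.87 to 4.18). With every list limited, the ratios were 0.475 for SMC1, 0.441 for RAD21 and 1.72 for SMC3. Of the BORIS SMC3 single-list regions, 4.49% ranked in the top 50% of their list, against 0.858% to 1.91% in the other 5 lists.

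The second question was how near single-list regions lie to all-list regions. The median gap between edges was 7147 bp, with quartiles of 1754 and 20049 bp. It was 14667 bp when every list was limited to a −log10 q of 10 or more, and 11533 bp when regions up to 1 kb apart were joined. Within 10 kb of an all-list region lay 21468 single-list regions (58.0%, interval 57.5 to 58.5), against 57.4% of all regions called in 1 to 5 lists. Of the stretch of chromosomes 1 to 19 between the first and last region of each chromosome, leaving out the all-list regions themselves, 27.8% lay within the same distance. Within 50 kb the shares were 90.8% of single-list regions and 62.3% of that stretch. Single-list regions thus lay in the neighbourhood of all-list regions more often than the length of the neighbourhood alone gives, and so did regions of 2 to 5 lists, with a median gap of 7650 bp.

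At the shortest distances single-list regions differed from the other incomplete classes. Within 200 bp of an all-list region lay 3004 single-list regions (8.12%, 7.84 to 8.40), against 5.42% (5.11 to 5.74) of 2-list regions and 5.03% (4.85 to 5.21) of all regions of 2 to 5 lists. Only 0.834% of the stretch lies that close, so the density there was 9.73 times the even level for single-list regions and 6.03 times for regions of 2 to 5 lists. Between 1 and 10 kb the order was the other way, with 1.64 times the even level for single-list regions and 1.77 times for the other class. Between 10 and 50 kb both were near the even level, at 0.947 and 0.991. Merged regions that touch are joined by rule and single-list regions are narrow, so the closest distances also reflect how the regions were delimited. Joining regions up to 200 bp apart removed the closest ones by construction and left 53.1% within 10 kb.

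**Figure D3:**
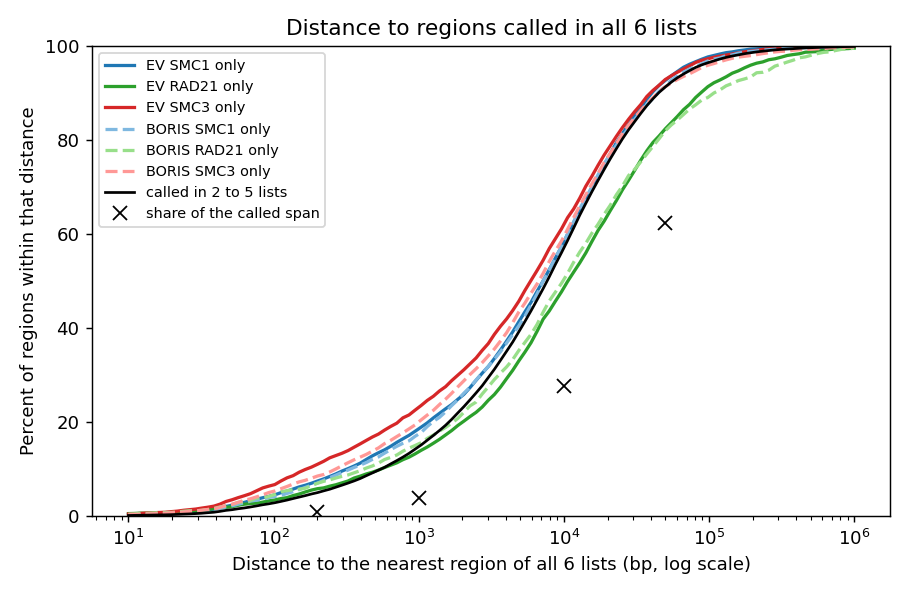
Percent of regions (y axis) that lie within a given distance of the nearest all-list region (x axis, bp on a log scale), for single-list regions of each list, for regions of 2 to 5 lists (black) and, as crosses, for the stretch of the chromosomes at 200 bp, 1 kb, 10 kb and 50 kb. The RAD21 curves lie below the others beyond 1 kb, with 48.7% and 50.1% within 10 kb against 58.3 to 62.1% for SMC1 and SMC3.

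Distances differed by antibody. EV SMC3 single-list regions lay closest to all-list regions, with a median gap of 5903 bp, followed by BORIS SMC3 at 6718 bp. EV SMC1 at 7177 bp and BORIS SMC1 at 7180 bp had nearly the same value. RAD21 single-list regions lay farthest, at 9909 bp in BORIS and 10638 bp in EV cells. Within 200 bp were 11.1% (10.3 to 11.9) of the EV SMC3 regions, 8.55% (7.98 to 9.15) of BORIS SMC3, 7.49% (6.99 to 8.01) of EV SMC1, 7.05% of BORIS SMC1, 7.02% of BORIS RAD21 and 5.86% (5.05 to 6.77) of EV RAD21.

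RAD21 stood apart at long range. More than 50 kb from any all-list region were 358 (18.1%) of the BORIS RAD21 and 529 (17.6%) of the EV RAD21 single-list regions, against 7.13% to 8.62% in the SMC1 and SMC3 lists. Of the RAD21 regions, 7.37% in BORIS and 6.16% in EV cells had no region of any of the other 5 lists within 50 kb, against 1.26% (EV SMC1) to 2.78% (BORIS SMC3). The remote RAD21 regions had a median pileup of 9 fragments in BORIS and 10 in EV cells, over background rates of 1.00 and 1.04. Remote regions of the SMC1 and SMC3 lists had 10 or 11 fragments. With 1 library per antibody and line, an antibody and its libraries cannot be told apart.

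Close and remote members differed in background. Single-list regions within 1 kb of an all-list region had median background rates of 1.69 (BORIS RAD21) to 2.13 (EV SMC1), and those beyond 50 kb had 1.00 to 1.32. The lowest rate in a list was 0.908 (EV RAD21) to 1.03 (EV SMC3). The remote medians of 1.00 in BORIS RAD21 and 1.04 in EV RAD21 lay near that floor. Median pileups differed little, with 10 to 12 fragments in the close and 9 to 11 in the remote members. Fold was thus lower in close members, with medians of 3.94 to 4.19, than in remote members, with 4.52 to 5.08. The all-list regions with a single-list region within 1 kb numbered 6785 (13.3% of all-list regions). They were wider than the other all-list regions, with a median of 582 bp against 442 bp, but ranked lower, with a median percentile of 63.8 against 71.1. Of them, 35.2% contained more than 6 deposited regions, so that at least 1 list had split them, against 17.4% of the other all-list regions.

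Distances to regions of other lists, whatever their class, were also taken. Within 50 bp of a single-list region there was a region of another list in 5.63% of cases (2083 regions), within 200 bp in 18.7% and within 1 kb in 39.4%. The list found most often within 1 kb of EV SMC1 members was EV SMC3 (32.6%), and for EV SMC3 members it was EV SMC1 (37.6%). For BORIS SMC1 members it was BORIS SMC3 (32.7%), with EV SMC1 at 32.4%, and for BORIS SMC3 members it was BORIS SMC1 (31.3%). For RAD21 members it was the SMC1 list of the same line, with 23.9% in EV and 26.2% in BORIS cells. The partner most often nearby thus came from the same line for each of the 6 lists, although longer lists are met more often by construction and the margins were small.

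Single-list regions of the same list also lay next to each other. Over 36973 pairs of neighbouring single-list regions on a chromosome, 26.2% were of the same list, where the shares of the 6 lists alone would give 20.7%. Among the 2911 neighbours at most 1 kb apart, 35.4% were of the same list and 66.3% of the same line, where the shares of the lines alone would give 50.2%. The most crowded window of 1 Mb was taken for each list, with chromosome 18 left out. BORIS SMC3 had the highest count, with 40 single-list regions on chromosome 4 from 88000001 to 89000000. EV SMC1 followed, with 29 on chromosome 8 from 126000001 to 127000000. A window that held any member held a median of 3 in BORIS SMC3 and 5 in EV SMC1. The window on chromosome 4 had 9 BORIS SMC1 members, 8 of EV SMC3, 7 of EV SMC1 and none of either RAD21 list. All 6 lists were well represented there, with 100 (EV RAD21) to 197 (BORIS SMC3) deposited regions and 81 all-list regions. In the window on chromosome 8, EV SMC3 held 14 members, BORIS SMC3 6, EV RAD21 3, BORIS SMC1 3 and BORIS RAD21 1. Deposited regions numbered 113 to 166 in the EV lists there and 86 to 123 in the BORIS lists. These windows were picked after their values were seen.

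The share of merged regions that were single-list was similar on all chromosomes, from 23.3% on chromosome 17 to 28.4% on chromosome 14. Their division between lines was not. On chromosome 4, 1720 single-list regions came from BORIS and 880 from EV cells, a ratio of 1.95. On chromosome 14 there were 373 and 1094, a ratio of 0.341. Chromosomes 8 and 12 resembled 14, with ratios of 0.394 and 0.481. The antibodies moved together along the chromosomes although their sets of regions share no member. On chromosome 4 the BORIS to EV ratio was 1.40 (1.24 to 1.58) for SMC1, 1.53 (1.24 to 1.89) for RAD21 and 3.10 (2.70 to 3.56) for SMC3, the highest of any chromosome for each antibody. On chromosome 14 it was 0.221 (0.182 to 0.267) for SMC1 and 0.176 (0.116 to 0.259) for RAD21, the lowest of any chromosome, and 0.669 (0.558 to 0.80) for SMC3, next to the 0.609 of chromosome 8. The lengths of the whole lists had ratios of 1.18 to 1.29 on chromosome 4 and 0.692 to 0.791 on chromosome 14.

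Chromosome 4 was the only chromosome with more BORIS than EV single-list regions for SMC1 and for RAD21. For SMC3, 16 of the 19 chromosomes had more in BORIS cells, and chromosomes 8, 12 and 14 had fewer. Over the other chromosomes, without 4 and 14, the ratio for SMC1 was 0.571 (0.552 to 0.590). It was 0.643 (0.605 to 0.684) for RAD21 and 1.42 (1.37 to 1.46) for SMC3. The opposite directions of the antibodies were therefore also seen without these 2 chromosomes.

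**Figure D4:**
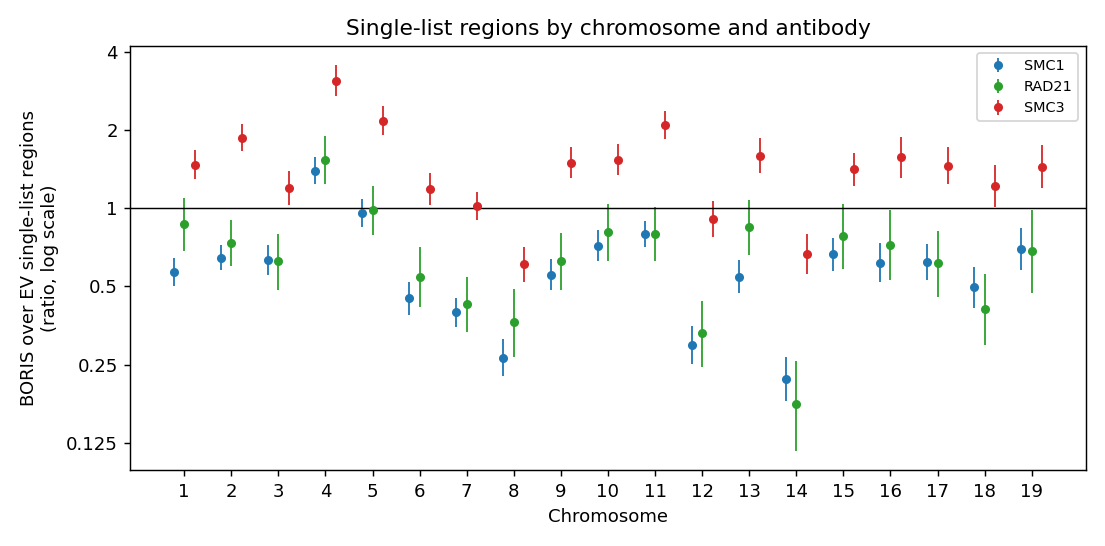
Ratio of BORIS to EV single-list regions (y axis, log scale) on each of chromosomes 1 to 19 (x axis) for SMC1, RAD21 and SMC3, with exact 95% intervals and a line at 1. Points of the 3 antibodies rise together on chromosome 4 and fall together on chromosomes 8, 12 and 14, and SMC3 lies above the other antibodies on every chromosome.

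A readout that the choice of regions did not use came from another cell type. Snf2h is the ATPase of ISWI-type remodellers, which slide and space nucleosomes, and it takes part in the nucleosome order around CTCF sites. CH12 cells, which derive from a B-cell lymphoma of the mouse, had been mapped for it as wild type (wtCH12) and with a Cas9-made homozygous deletion of zinc fingers 9 to 11 in the CTCF gene (mutCH12). Of the single-list regions, 484 (1.31%, 1.20 to 1.43) overlapped a wtCH12 Snf2h region, against 4.04% of all merged regions and 8.23% (8.0 to 8.48) of all-list regions. For the mutCH12 list the values were 834 (2.25%, 2.11 to 2.41) against 5.63% and 10.6% (10.3 to 10.8). The shares rose with each further list that called a cohesin region, from 1.31% to 1.54, 1.85, 2.53, 3.08 and 8.23% for wtCH12.

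Single-list regions are narrower, which lowers overlap, so the share of midpoints within 1 kb of a Snf2h region was also taken. For wtCH12 this was 4.90% (4.69 to 5.13) of single-list, 4.89% of 2-list, 4.87% of 3-list, 5.72% of 4-list, 6.36% of 5-list and 10.6% (10.4 to 10.9) of all-list regions, against 7.07% of all merged regions. The first 3 of these shares did not differ beyond counting error, and the shares were higher from 4 lists on. For mutCH12 the shares were 7.54% (7.28 to 7.82) for single-list, 7.16% for 2-list, 7.90% for 3-list, 8.70% for 4-list, 9.55% for 5-list and 13.9% for all-list regions, against 9.999% of all merged regions. The order of the lists depended on the measure. By overlap with wtCH12 regions EV RAD21 was highest (1.67%, 1.24 to 2.19) and BORIS SMC3 lowest (1.10%, 0.90 to 1.34), with intervals that overlapped. By midpoints within 1 kb EV RAD21 was lowest (3.93%, 3.27 to 4.69) and EV SMC1 highest (5.39%, 4.96 to 5.83). EV SMC1 had the highest overlap with mutCH12 regions, 2.78% (2.47 to 3.11), above BORIS SMC3 with 1.92% (1.65 to 2.23) and EV SMC3 with 1.93% (1.60 to 2.30). Members within 1 kb of an all-list region overlapped wtCH12 Snf2h regions in 1.97% of cases (1.65 to 2.32), and the farther ones in 1.15% (1.04 to 1.28).

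**Figure D5:**
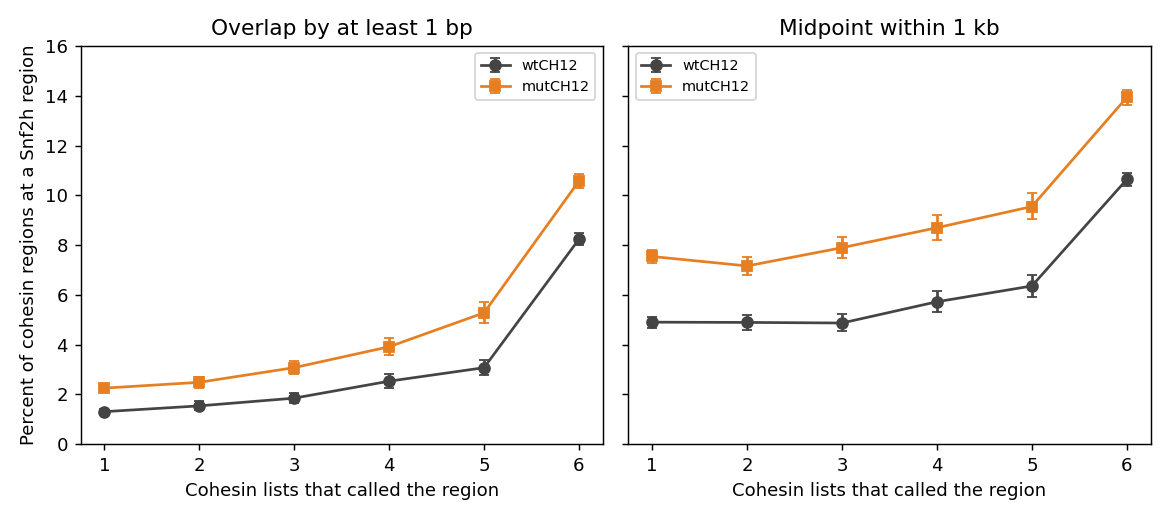
Percent of merged cohesin regions at a Snf2h region (y axis) by the number of cohesin lists that called them (x axis), as overlap of at least 1 bp (left) and as a midpoint within 1 kb (right), with exact 95% intervals. Single-list regions have 1.31% (wtCH12) and 2.25% (mutCH12) on the left, and all-list regions have 8.23% and 10.6%.

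Individual regions show what these calls look like. Coordinates are those of the lists, counted from 1, on mm9, the mouse build that the submitters' processing notes name. No genome or gene annotation of that build was used, so no gene is assigned and no sequence is shown. The strongest isolated regions, with no region of another list within 1 kb, were taken from each list. Their folds have 1 added to the pileup and to the background, so they are lower than the plain ratio. For EV SMC1 the first was chromosome 7 from 73874212 to 73874512, with a pileup of 30 over a background of 1.38 (fold 13.0), 1042 bp from an all-list region. The second was chromosome 19 from 55213878 to 55214134, with a pileup of 30 over 2.55 (fold 8.72), 39586 bp from an all-list region. The median EV SMC1 summit in all-list regions held 35 fragments.

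For EV SMC3 the strongest were chromosome 5 from 24301281 to 24301448 (pileup 24, fold 11.1) and chromosome 12 from 32305080 to 32305260 (pileup 22, fold 11.1). Their nearest all-list regions lay 4713 and 13564 bp away. For EV RAD21 the top region was of another kind. Chromosome 17 from 71313027 to 71313177 had a pileup of 126 over a background of 29.9, which gave a fold of only 4.12. The next highest background among the regions named here was 3.34. The second, chromosome 19 from 59454588 to 59454822, had a pileup of 31 over 1.17 and a fold of 14.8, 2090 bp from an all-list region.

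In BORIS cells the strongest isolated SMC3 regions were chromosome 12 from 112981054 to 112981215 (pileup 28, fold 11.8) and chromosome 2 from 120547345 to 120547535 (pileup 27, fold 12). The SMC1 regions were chromosome 9 from 84253642 to 84253805 (pileup 21, fold 10.1) and chromosome 12 from 88567787 to 88568013 (pileup 21, fold 9.72). The RAD21 regions were chromosome 4 from 146108947 to 146109117 (pileup 25, fold 8.64) and chromosome 10 from 124379268 to 124379567 (pileup 19, fold 10.5). These RAD21 regions were also remote, at 209192 and 737090 bp from the nearest all-list region, where the other BORIS regions named lay 3662 to 39559 bp away.

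The strongest members within 1 kb of an all-list region were set beside the summits of that neighbour. In EV SMC1, chromosome 8 from 14992192 to 14992516 (pileup 26) lay 107 bp from an all-list region whose summits held 110 fragments in EV SMC1, 73 in EV RAD21, 113 in EV SMC3, 63 in BORIS SMC1, 31 in BORIS RAD21 and 52 in BORIS SMC3. In BORIS SMC3, chromosome 6 from 85346611 to 85346843 (pileup 24) lay 314 bp from an all-list region with 49 (BORIS SMC1) to 110 (EV RAD21) fragments. In both cases every list had more fragments at the neighbour than the member had in its own list. In BORIS SMC1, chromosome 9 from 119990843 to 119991091 (pileup 22) lay 181 bp from an all-list region with 14 (EV RAD21) to 38 (BORIS SMC3) fragments, a neighbour of similar size. In EV RAD21, chromosome 2 from 126149442 to 126149836 (pileup 27, at 539 bp) was above its neighbour in its own list, where the neighbour held 25 fragments. In BORIS RAD21, chromosome 11 from 119465030 to 119465204 (pileup 23, at 488 bp) was also above its neighbour in its own list, which held 22. In EV SMC3, chromosome 16 from 86244567 to 86244714 (pileup 17, at 556 bp) was below its neighbour in its own list, with 25 fragments, but above it in BORIS RAD21 and BORIS SMC3, with 14 each.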

How the data were processed

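Of 30 samples, the peak lists of 8 ChIP-seq libraries were used, and the other 22 samples were not analysed here. The lists have the 10 narrowPeak columns and no header. Per the submitters' processing notes, Bowtie, Bowtie2 (version 2), SAMtools, MACS2 and deepTools (version 3.5.0) and the builds mm9 and hg19 were used, with no roles given. The control and the filters are not given in the sources used here. Positions on chromosome 1 reach 197182423, past the last GRCm38 gene end (195291439), so mm9 was taken as the build. The authors deposited for each region a score, a fold and −log10 p and q values, which were used to describe, rank and filter regions within each list. The fold is a ratio of summit pileup to local background per the column layout, and the deposited values were solved with 1 added to both. Lists may differ in depth, so a fixed −log10 q minimum is met at different rates by different lists. Pooling of replicates was not stated, and each list was taken as 1 sample. Total reads per library are not given in the sources used here.

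Lists were merged with Python 3.11.15, pandas 2.3.3, NumPy 2.4.6 and SciPy 1.17.1, and drawn with Matplotlib 3.10.9. Whole-number pileups solved fold and −log10 p (Poisson tail, within 0.001) for 100% of summits with a −log10 p under 300. Percentiles are over each whole list, chromosomes X and Y included. Distances run between nearest edges. Shares carry exact (Clopper-Pearson) 95% intervals, ratios of counts the matching interval, and a count of 0 the limit of 3 counts. Neighbouring regions are not independent. Since each group had 1 library, no p-value was computed. Interval and pileup steps were tested on simulated data. For each list, the 2 regions of highest −log10 p with no other list within 1 kb and the top region within 1 kb of an all-list region are named (width up to 3 kb, chromosome 18 left out). The class of regions and these rules were chosen with earlier results of these data known.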

Additional observations from a re-analysis of the deposited data

Results flagged for a closer look

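The change in single-list regions from EV to BORIS cells went in opposite directions between antibodies. The BORIS to EV ratio was 0.586 for SMC1 and 0.66 for RAD21, and 1.45 for SMC3. The difference was not tested, since each ratio rests on 1 library per line.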

How the results depend on the processing

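No BORIS to EV ratio crossed 1 in a setting that gave it a value (leaving out a list leaves no ratio for its antibody), but without BORIS SMC3 the interval for RAD21 reached past 1 (0.918 to 1.01). Keeping in all lists only regions with a −log10 q of 10 or more gave 17470 single-list regions (22.2% of merged regions), 29.7% of them in EV SMC1, 39.8% within 10 kb of an all-list region, a median distance of 14667 bp and ratios of 0.475 (SMC1), 0.441 (RAD21) and 1.72 (SMC3). All-list regions are fewer under that threshold. Only regions with that strength in their own list, against the other lists as deposited, gave 1222 regions, 41.6% of them in BORIS SMC3, 53.4% within 10 kb, 8561 bp and ratios of 0.448, 0.248 and 3.46, and there is no share of merged regions for it. Equal numbers gave 22.5% of merged regions, 20.7% in EV SMC1, 52.5% within 10 kb, 9076 bp and ratios of 0.754, 0.80 and 1.20. Joining up to 200 bp gave 22.1%, 28.0%, 53.1%, 8879 bp and 1.56 for SMC3. Joining up to 1 kb gave 21794 regions, 19.2%, 27.1%, 45.6%, 11533 bp and 1.61 for SMC3. Summit clusters gave 26.3%, 27.0%, 60.2%, 6376 bp and ratios of 0.632, 0.744 and 1.40. Adding X and Y gave 57.4% within 10 kb and 7318 bp. Beyond these constructions the causes were not tested.

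Leaving out each list in turn gave 36275 to 40746 regions, 26.0 to 28.7% of merged regions, 28.4 to 37.0% in the leading list (EV SMC1, or BORIS SMC3 without either SMC1 list), 58.4 to 60.6% within 10 kb, medians of 6468 to 7033 bp and ratios of 0.489 to 0.951 (SMC1), 0.542 to 0.963 (RAD21) and 1.06 to 2.05 (SMC3). With a list left out, single-list and all-list regions were defined over the remaining lists, so these distances are not to the same set of regions as above. A −log10 q minimum of 2 and leaving out chromosomes 4 and 14 moved no value beyond its interval or 1.5 times. The latter setting, and the ratios under all settings, were chosen after seeing the data. No paired analysis was possible because no result comes from a test and the lists carry no replicate numbers; lines were compared within each antibody. A summit of about 10 fragments limits what absence from another list shows.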
